A study of Arabidopsis thaliana with 3 samples.

Results

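Gene expression in the pwo1 mutant of Arabidopsis thaliana was set against that in the wild type Col-0. After 2 days of stratification, a cold treatment of the seed, plants of every genotype grew on upright MS plates in long days, whole seedlings were harvested at 14 days, and the design text of the series states 3 biological replicates for each genotype. The pwo1 plants carry a mutation of PWO1, whose allele the labels do not give, and Col-0 is the wild-type accession. The genes described are all 1239 rows of the authors' deposited table for pwo1 against Col-0, of 2666 genes in either table of the series. The other table compares the crwn1 crwn2 double mutant with the same Col-0 group and holds 1935 genes. Emphasis is on the 731 genes of the pwo1 table whose locus identifier does not occur in the crwn1 crwn2 table, 59% of those listed.

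PWO1 is a protein with a PWWP domain, a fold that reads chromatin, and it is known to bind Polycomb proteins. Polycomb repressive complexes place and maintain the trimethylation of lysine 27 on histone H3, a mark of silent genes such as the floral repressor FLC in plants that have been through winter. CRWN1 and CRWN2 are coiled-coil proteins at the inner face of the plant nuclear envelope, and loss of these proteins or of PWO1 makes nuclei smaller.

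The values are log2 fold changes, given as pwo1 over Col-0, and p-values of the authors' edgeR test. They rest on whole tables of the authors' comparisons, so no value per replicate, spread or read depth accompanies them. A gene is called higher or lower here when the deposited table lists it with that sign, and a gene that is not listed is not shown to be unchanged. Because the crwn1 crwn2 table is also a list of selected genes, absence from it does not show a difference between the mutants. PWO1 (AT3G03140) was not listed, and its relatives PWO2 and PWO3 could not be matched by name and were not looked up. The sign of the table therefore rests on its header alone, and every direction below would turn with it. In RNA of whole seedlings, fewer cells of a type and less RNA per cell cannot be told apart. Of the listed genes 291 overlap another annotated gene. Among those named below are SAUR63, RLP18, DELTA-TIP, AT3G49740, EMB1006, MSI3, GDPD6, BBX24, AT5G60610, PIF7 and cpHsc70-2, besides those marked where their values are given.

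Of the listed genes, 527 were higher (42.5%) and 712 lower (57.5%) in pwo1. The genes found in the pwo1 table alone were evenly divided, with 358 higher (49% of them and 28.9% of all listed genes) and 373 lower (30.1% of all listed genes). Those also in the crwn1 crwn2 table leaned to lower values, with 169 higher (33.3%) and 339 lower of 508. Put the other way, 67.9% of the higher genes and 52.4% of the lower genes were missing from the crwn1 crwn2 table. The genes in the pwo1 table alone also had the smaller changes. A change of at least 2-fold was given for 219 of the 731 (30%) and for 211 of the 508 genes in both tables (41.5%), and for 430 of all 1239 (34.7%). The median log2 fold change in the authors' deposited table was 0.72 for higher genes in the pwo1 table alone and 0.96 for higher genes in both tables. For lower genes it was -0.80 in the pwo1 table alone and -0.86 in both tables. A gene in both tables need not have the same sign in each, and 45 of the 508 had opposite signs. Among these were LURP1, at -1.55 in pwo1 and 1.78 in crwn1 crwn2, and FMO1, at -1.88 and 2.12, in the authors' deposited tables. Both are in a list of 19 salicylic acid genes found in the reference. Of these 8 were listed, against 4.38% of all protein-coding genes, and all 8 were lower in pwo1.

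**Figure D1:**
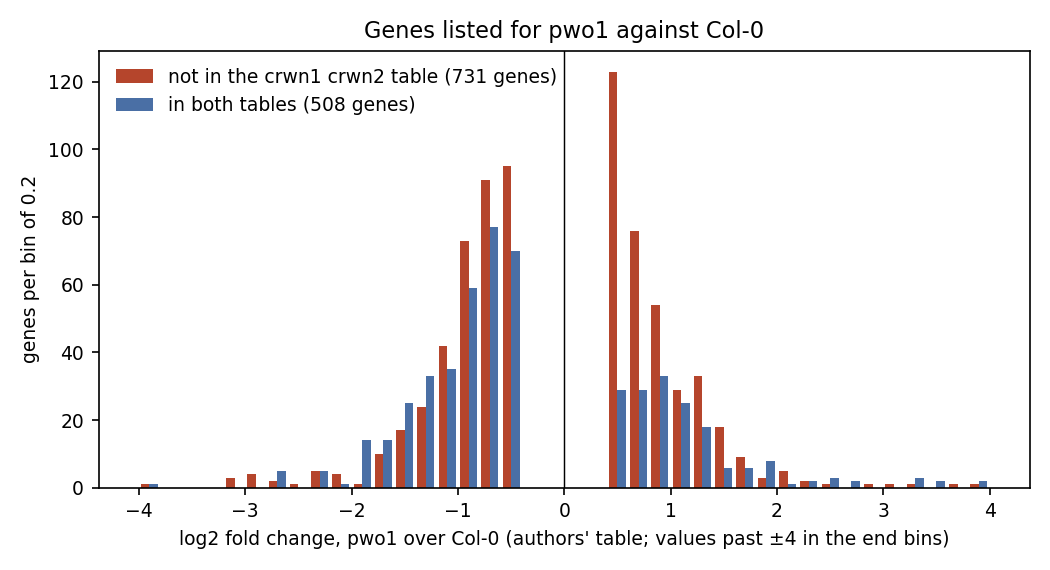
Number of listed genes per bin of log2 fold change, pwo1 over Col-0 by edgeR in the authors' deposited table, for genes absent from the crwn1 crwn2 table (red) and for genes in both tables (blue). The gap around 0 is the selection by the authors, whose smallest absolute value is 0.41, and the red bars exceed the blue ones most on the side of genes that were higher in pwo1.

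To see which functions these genes have, the authors' gene descriptions were sorted by their words into 57 classes, which may share genes. A class held 752 of the genes, 487 fell in none, and 60 had a description marked as removed. Listed genes for making ribosomes and organelle proteins were mostly higher in pwo1 and mostly absent from the crwn1 crwn2 table. Those for light harvesting and auxin-responsive growth were mostly lower and often in both tables. By RefSeq product name 2.33% of ribosomal protein, 2.87% of pentatricopeptide repeat, 7.87% of nucleolar and 25% of chaperonin genes were listed. The share was 50% for photosystem and 24.4% for SAUR genes, against 4.38% of all protein-coding genes. The nucleolus and mitochondrion classes were added after the values had been seen.

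**Figure D2:**
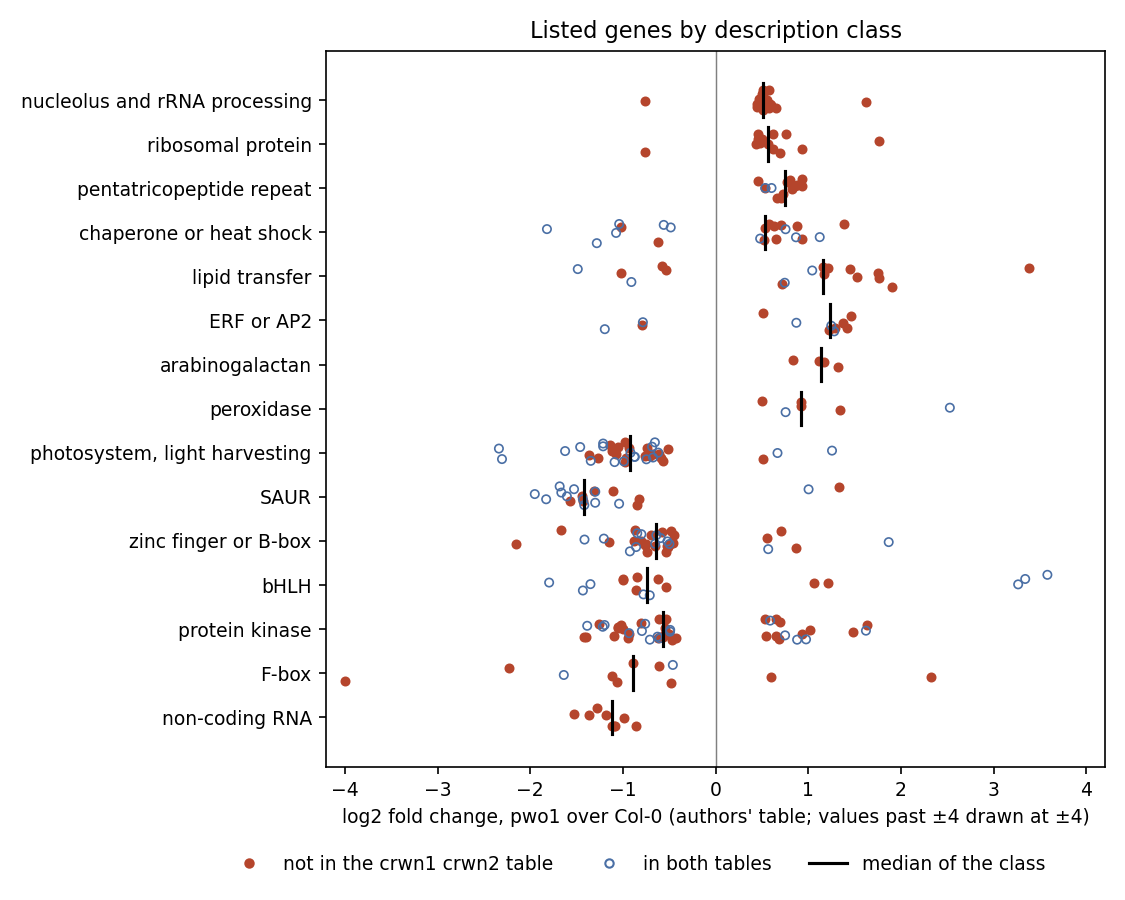
Log2 fold change of each listed gene, pwo1 over Col-0, in 15 of the description classes, with genes absent from the crwn1 crwn2 table filled and genes in both tables open. The black bar is the median of the class, which is 0.51 for nucleolus and rRNA processing, all of whose 20 genes are filled, and -1.42 for SAUR, most of whose genes are open. A gene that belongs to several classes appears in each.

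Listed genes of the nucleolus, where ribosomal RNA is made and trimmed, were mostly higher in pwo1. Genes found only in the crwn1 crwn2 table were not sorted by description. Of the 20 listed genes whose descriptions name the nucleolus or ribosomal RNA processing, 19 were higher in pwo1 and 1 was lower, and all 20 were absent from the crwn1 crwn2 table. Their median was 0.51 in the authors' deposited table, with a range of -0.76 to 1.63. Only 1 of the 20 changed at least 2-fold, and the smallest absolute value of any listed gene was 0.41. This class was added after the values had been seen, so its count is a description. Among all genes listed, 42.5% were higher.

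The core proteins of the small nucleolar ribonucleoproteins that guide methylation of ribosomal RNA were among them. FIB2 (AT4G25630), a fibrillarin that carries out the methylation, stood at 0.65 on the log2 scale in the authors' deposited table. The scaffold protein genes NOP56 (AT1G56110), AT3G05060, annotated as NOP58-like, and AT5G27120, which has the same snoRNA-binding domain, had 0.51, 0.51 and 0.60 in that deposited table. NAP57 (AT3G57150), the Arabidopsis dyskerin, belongs to the other class of particles, those that guide the change of uridine to pseudouridine, and had 0.50 in the authors' deposited table. AT4G12600, counted with the ribosomal proteins, whose description names the Nhp2 subunit of the same particles, had 0.46 in the deposited table of the authors. Every listed gene of both kinds of particle was thus higher in pwo1.

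Genes of the small-subunit processome, the large particle that cuts the first precursor RNA, moved alike. AT5G08600, a U3 ribonucleoprotein Utp protein, had the largest value of the class, 1.63 with an edgeR p of 2.02e-10 in the authors' deposited table. PWP2 had 0.58, TOZ 0.45, IMP4 0.45 and AT1G15420, which holds a Utp12 domain, 0.55 in the authors' deposited table. NSN1, a nucleostemin-like GTPase needed for ribosome assembly, had 0.51 in the same deposited table of the authors. HDT4, a plant-type histone deacetylase related to a nucleolar maize protein, was also at 0.51 in the authors' deposited table. Its relative HDA3 (AT3G44750), another HD2-type deacetylase, had 0.61, and FKBP53, a histone chaperone described as a repressor of ribosomal DNA, had 0.66 in the authors' deposited table. FIB2, NOP56, PWP2, NSN1 and HDA3 overlap other annotated genes, and the library kit does not mark strand, so reads of the overlapping gene cannot be told from theirs. The 1 lower gene was AT4G11630, a ribosomal protein L19 family gene, at -0.76 in the authors' deposited table. An upper bound of the adjusted p, taken over all 38094 genes of the reference, was under 0.05 for 15 of the 20.

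Ribosomal protein genes were listed sparsely but mostly in the same direction. Of 13 genes whose descriptions match those words, 12 were higher, and all 13 were absent from the crwn1 crwn2 table. The words also match proteins of other kinds, AT4G12600 and AT5G25230 among them. The largest value was 1.77 for AT5G25230, an elongation factor G type GTPase, with an edgeR p of 1.81e-05 in the authors' deposited table. The ribosomal protein genes XW6 and AT4G13170 had 0.62 and 0.44 in that deposited table. AT1G23410, which encodes ubiquitin fused to ribosomal protein S27a, had 0.93 in the authors' deposited table. It overlaps another annotated gene, as does AT4G13170. By RefSeq product name, 8 of 344 ribosomal protein genes were listed (2.33%), 7 higher and 1 lower, against 4.38% of all protein-coding genes (1207 of 27562). None of 13 cytosolic ribosomal protein genes that were taken as examples was listed. For nucleolar and ribosomal RNA processing proteins the share was 7 of 89 (7.87%), all 7 higher.

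The promoters of this group are shown because many of them hold short motifs that are known from Arabidopsis genes of growing cells. The telo-box (AAACCCTA) and the site II element (TGGGCC) were searched on both strands from 250 bases before to 50 bases after the annotated gene start. A telo-box was present in 11 of 20 promoters of the nucleolar class (55%) and 5 of 13 of the ribosomal protein class (38.5%), against 6.22% of all 27443 promoters searched. Site II was present in 9 of 20 (45%) and 5 of 13 (38.5%), against 15.5% of all promoters. The classes share AT3G16780 and AT4G11630. These motifs were not particular to them. A telo-box was also in 6 of 17 lipid transfer promoters (35.3%), in 27.8% of RNA-binding and in 25% of helicase or DNA repair promoters. Site II was also in 38.9% of RNA-binding and 37.5% of translation factor promoters. Below are the 250 bases before the start of AT2G40360, a WD40 protein of ribosomal RNA processing on the minus strand at chr2:16856772-16857021, and of AT4G13170, a ribosomal protein L13 family gene on the minus strand at chr4:7656595-7656844, with telo-box and site II letters in capitals (sequence from RefSeq, build TAIR10.1).
AT2G40360: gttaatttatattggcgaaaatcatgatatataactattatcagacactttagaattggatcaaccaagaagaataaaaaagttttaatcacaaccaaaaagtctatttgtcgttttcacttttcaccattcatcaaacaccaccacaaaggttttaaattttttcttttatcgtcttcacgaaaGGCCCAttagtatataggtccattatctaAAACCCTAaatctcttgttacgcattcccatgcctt
AT4G13170: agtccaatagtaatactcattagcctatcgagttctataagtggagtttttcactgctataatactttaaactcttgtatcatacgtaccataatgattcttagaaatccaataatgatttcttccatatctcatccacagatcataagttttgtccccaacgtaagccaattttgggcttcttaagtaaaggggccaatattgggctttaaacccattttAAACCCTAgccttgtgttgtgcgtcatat
In AT2G40360 a site II element begins 65 bases and a telo-box 36 bases before the start, and in AT4G13170 a telo-box begins 29 bases before it. AT2G40360 stood at 0.47 in the authors' deposited table. Over all genes, a telo-box was in 35 of 349 promoters of higher genes and in 9 of 356 of those of lower genes (2.53%) in the pwo1 table alone. For genes in both tables it was in 5.95% of promoters of higher genes and 3.29% of those of lower genes. A match is a description of the letters, not of a factor at work there. Unlisted genes of the same function were not compared, so these shares do not set the listed genes apart from them.

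Chaperones that act inside plastids and mitochondria included a further set absent from the crwn1 crwn2 table. All 6 listed genes of 24 chaperonin genes by RefSeq product name (25%) were higher in pwo1 and absent from the crwn1 crwn2 table, against the 4.38% of all protein-coding genes that were listed. Chaperonins are barrel-shaped complexes that fold newly imported proteins. The plastid subunits CPN60A (AT2G28000), CPN60B (AT1G55490) and Cpn60beta2 (AT3G13470) had 0.71, 0.52 and 0.65 in the authors' deposited table, and their co-chaperonin CPN20 had 0.58. The mitochondrial subunits HSP60 and HSP60-2 had 0.63 and 0.54 in the authors' deposited table. Plastid and mitochondrial chaperonins were therefore both higher, by less than 2-fold. CPN60B, Cpn60beta2 and CPN20 overlap other annotated genes.

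Among the other chaperone genes, HSP70 had 0.88 and the heat stress factor genes HSFA3 and HSFA7A had 1.39 and 0.93 in the authors' deposited table, each in the pwo1 table alone, although HSFA3 overlaps another gene. The organelle chaperone genes cpHsc70-2, CR88 and mtHsc70-1 had 0.76, 0.87 and 0.48 in the authors' deposited table and were in both tables. Of the 21 genes that matched chaperone or heat shock words, 13 were higher. The 8 lower ones include AT2G20550, in both tables, which at -1.82 with an edgeR p of 5.81e-10 in the authors' deposited table had the smallest p of the class and overlaps another gene. AT1G54050, in the pwo1 table alone, had -1.02 in the authors' deposited table. RL4, RL5 and RL6, also lower, are small MYB-like genes whose descriptions match only by a domain name. Site II was in 7 of the 21 promoters (33.3%), against 15.5% of all promoters. The 250 bases before the plastid chaperonin genes CPN60A, on the plus strand at chr2:11926196-11926445, and Cpn60beta2, on the plus strand at chr3:4388965-4389214, each hold a pair of them, in capitals (RefSeq, TAIR10.1).
CPN60A: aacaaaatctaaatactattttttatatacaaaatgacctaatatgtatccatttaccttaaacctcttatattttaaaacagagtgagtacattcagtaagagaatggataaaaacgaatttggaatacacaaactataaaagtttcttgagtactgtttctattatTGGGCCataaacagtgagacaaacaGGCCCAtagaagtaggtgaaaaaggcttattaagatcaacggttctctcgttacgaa
Cpn60beta2: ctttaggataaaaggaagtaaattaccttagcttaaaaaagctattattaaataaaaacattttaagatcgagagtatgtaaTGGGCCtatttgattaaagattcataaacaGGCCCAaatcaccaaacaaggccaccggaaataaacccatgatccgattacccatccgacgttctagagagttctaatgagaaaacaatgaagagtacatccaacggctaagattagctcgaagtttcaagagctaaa
The elements begin 82 and 57 bases before the start in CPN60A, and 168 and 138 bases before it in Cpn60beta2.

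Pentatricopeptide repeat proteins bind single RNAs in plastids and mitochondria and edit, cut or stabilise them. All 14 listed genes of this class were higher in pwo1, 12 of them in the pwo1 table alone, with a median of 0.75 in the authors' deposited table. AT3G02330 had 0.94, AT3G07290 0.93 and AT3G49740 0.88 in the authors' deposited table. MEF29 and MEF18, mitochondrial editing factors, had 0.86 and 0.73 in the deposited table of the authors. EMB1006, at 0.46 in the authors' deposited table, was the lowest. None reached 2-fold, and the upper bound of the adjusted p was under 0.05 for 4 of the 14. By RefSeq product name 8 of 279 such genes were listed (2.87%), below the 4.38% of all protein-coding genes, although the listed ones shared a direction. Telo-box and site II were in 1 and 2 of the 14 promoters (7.14% and 14.3%), near the share of all promoters.

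Plastid and mitochondrial genes were also counted by the location words of their descriptions. Of 140 listed genes whose description names a chloroplast or plastid, 98 were in the pwo1 table alone, with 64 higher and 34 lower. Those in both tables had 12 higher and 30 lower. Among all listed genes, 49% of those in the pwo1 table alone and 33.3% of those in both tables were higher. Of 45 genes whose description names the mitochondrion, 35 were higher, 29 of those in the pwo1 table alone. The mitochondrion class was added after the values had been seen. EMB1586 (AT1G12770), a DEAD-box RNA helicase of mitochondria, had 0.62 and AT1G30680, a DNA helicase with a toprim domain, 0.50 in the authors' deposited table. RH1, a further DEAD-box helicase, had 0.64, and PDE340, the neighbour of AT5G08600, had 0.69 in that deposited table. Of the 16 genes of helicases and DNA repair 10 were higher. Values on both sides were large for AT4G12740, a base excision repair protein at 1.35, and AT1G51130, an Nse4 subunit of the Smc5/6 complex at -1.48, in the authors' deposited table.

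Genes of light capture were mostly lower. Of 38 listed genes of photosystems, light harvesting and chlorophyll, 35 were lower in pwo1 (lower among all listed genes, 57.5%), with a median of -0.92 in the authors' deposited table. Those in the pwo1 table alone numbered 19, of which 18 were lower. By RefSeq product name 30 of 60 photosystem and chlorophyll-binding genes were listed (50%), 28 of them lower, against 4.38% of all protein-coding genes. Antenna proteins bind chlorophyll and pass light energy to the photosystems. The 4 main genes of the photosystem I antenna, LHCA1, LHCA2, LHCA3 and LHCA4, were in the pwo1 table alone, and the authors' deposited table gave them -1.14, -0.74, -0.93 and -1.12. The photosystem II antenna genes LHCB2.1 and LHCB6 had -1.36 and -0.98 there, in the authors' deposited table, while LHCB2.2 and LHCB3, at -1.62 and -1.35, were in both tables. Members of the LHCB1 and LHCB2 families are near copies of each other, which leaves the split of reads among them uncertain. The bound of the adjusted p was under 0.05 for 37 of the 38 genes, and 17 of them overlap another annotated gene, LHCA4, LHCB6, LHCB3 and CH1 included.

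Enzymes that make or break down chlorophyll had lower members too. CH1 (AT1G44446), the oxygenase that turns chlorophyll a into chlorophyll b, had -1.06, and CLH1, a chlorophyllase that cleaves chlorophyll, -0.97 in the authors' deposited table. PORA and PORB, the light-dependent protochlorophyllide reductases, had -2.30 and -1.09 in the authors' deposited table, both also in the crwn1 crwn2 table. The 3 higher genes of the class were HCAR, a reductase of the chlorophyll b to a return path, at 0.51, PSB28, at 0.67, and LHCB4.3, at 1.26, in the authors' deposited table. Only HCAR of these was absent from the crwn1 crwn2 table. Outside the class, small subunit genes of the carbon-fixing enzyme Rubisco were higher, with RBCS2B at 0.76 in the authors' deposited table, in the pwo1 table alone, and the near copy RBCS1B in both tables. Subunits of photosystem I in the pwo1 table alone were PSAD-1 at -0.76, PSAE-1 at -0.70, PSAL at -0.67, PSAK at -0.58 and PSAH-1 at -0.51 in the deposited table of the authors. The plastid genome's own cytochrome f gene, ATCG00540, was at 0.97 in the authors' deposited table, 1 of 2 plastid-encoded genes listed. The library kit selects RNA with a poly(A) tail, which most plastid transcripts lack.

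In the promoters of these genes the G-box (CACGTG), which bHLH and bZIP factors of light signalling are known to bind, was present in 14 of 38 (36.8%), against 7.68% of all promoters. The I-box (GATAAG), a motif known from light-regulated promoters, was present in 18 of 38 (47.4%), against 14.6% of all. A telo-box was in none of the 38. Here too, unlisted genes of the same function were not compared. The G-boxes of CH1, on the minus strand at chr1:16851272-16851521, and of LHCA4, on the minus strand at chr3:17495034-17495283, are shown in capitals in the 250 bases before the start (RefSeq, TAIR10.1).
CH1: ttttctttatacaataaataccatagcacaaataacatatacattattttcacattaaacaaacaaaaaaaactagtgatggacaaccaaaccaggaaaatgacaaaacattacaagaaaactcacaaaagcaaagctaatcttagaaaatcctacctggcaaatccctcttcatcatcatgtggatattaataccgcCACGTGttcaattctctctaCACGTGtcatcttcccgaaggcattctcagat
LHCA4: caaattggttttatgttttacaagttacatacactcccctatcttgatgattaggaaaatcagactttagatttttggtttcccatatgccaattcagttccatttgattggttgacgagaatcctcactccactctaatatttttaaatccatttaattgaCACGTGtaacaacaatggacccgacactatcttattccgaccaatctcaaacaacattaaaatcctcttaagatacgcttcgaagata
They begin 52 and 32 bases before the start in CH1 and 88 bases before it in LHCA4. Among SAUR genes the G-box was in none of 20 promoters, and the I-box in 7 (35%).

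**Figure D3:**
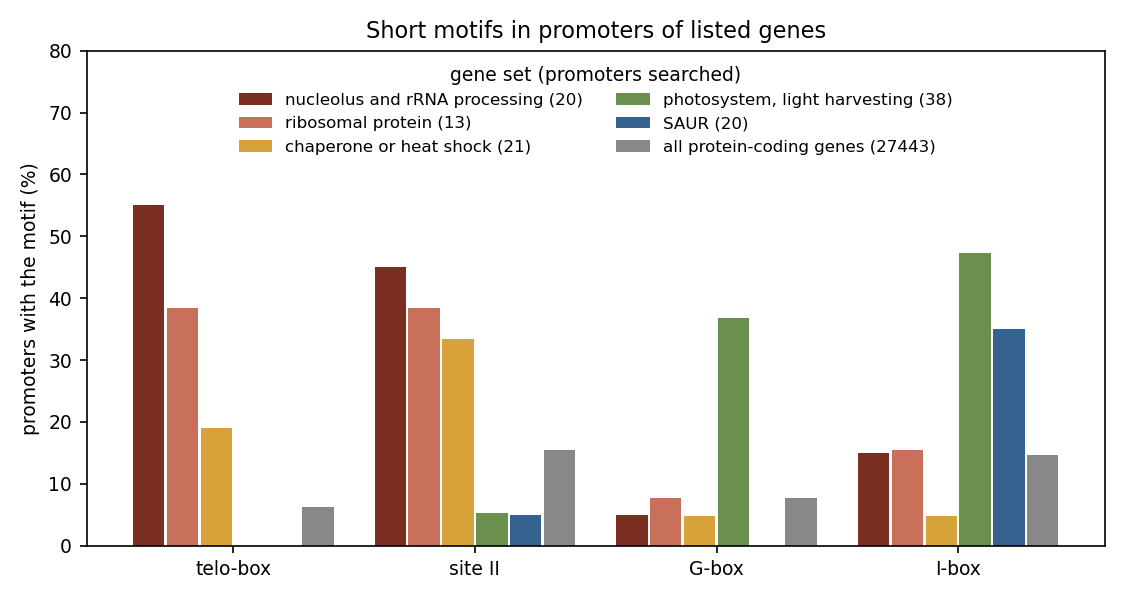
Share of promoters, from 250 bases before to 50 bases after the gene start, that hold each motif on either strand, for classes of listed genes and, in grey, for all protein-coding genes. The telo-box reaches 55% in the nucleolar class, where all promoters have 6.22%, and the G-box reaches 36.8% in the photosystem class, where all promoters have 7.68%. Unlisted genes of the same classes are not drawn.

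Most listed genes of light signalling were lower as well. GLK1 and GLK2, the transcription factors that switch on photosystem genes, had -0.76 and -0.75 in the authors' deposited table, GLK2 in the pwo1 table alone. PIL6, better known as PIF5, and PIF7, bHLH factors that promote elongation in shade, were in the pwo1 table alone, and both were lower, with -0.99 for PIF7 in the authors' deposited table, whereas PIF4, at -1.35, was in both tables. PAR2, a shade-induced bHLH protein that restrains elongation, had -0.85, and the blue light receptor gene CRY1 -0.57, in the authors' deposited table. Of 24 light signalling genes chosen as a list, 12 were in the pwo1 table, against 4.38% of all protein-coding genes. Of the 12, 3 were higher and 9 lower, and 5 were in the pwo1 table alone. The 3 higher genes, in both tables, were HY5, a central activator of light responses, at 0.58, ELIP2, a protein that protects against strong light, at 2.72 in the authors' deposited table, and its relative ELIP1. Of 36 zinc finger and B-box genes, 31 were lower, against 57.5% of all listed genes, and 20 of the 31 were in the pwo1 table alone, against 52.4% of all lower genes. By RefSeq product name 20 of 523 such genes were listed (3.82%), below the 4.38% of all protein-coding genes. BBX16, BBX28 and BBX24, B-box proteins, had -1.66, -1.15 and -0.77 in the authors' deposited table, and AT3G02790, a C2H2 zinc finger gene that overlaps another, had -2.15. CDF3 and COL5 had -0.88 and -0.87 in that deposited table.

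**Figure D4:**
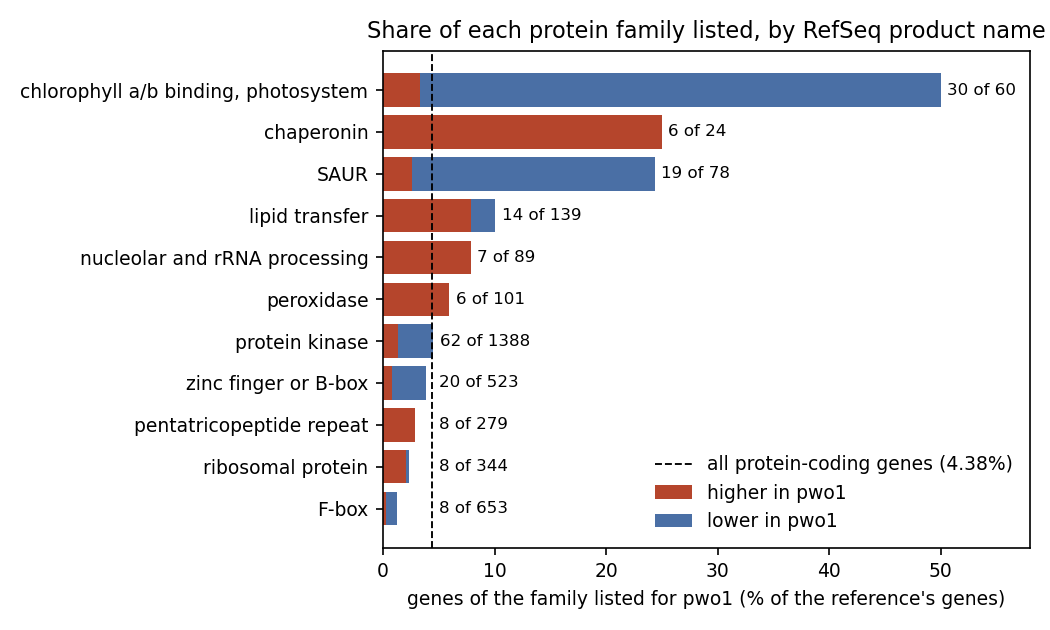
Share of the genes of each protein family, by RefSeq product name, that the authors' deposited table lists as higher (red) or lower (blue) in pwo1, with the number listed and the family size. The dashed line is the share of all protein-coding genes, 4.38%. The photosystem, chaperonin and SAUR families lie far above it, the protein kinases on it, and the pentatricopeptide repeat, ribosomal protein and F-box families below it.

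Auxin-responsive growth genes were lower. SAUR proteins are small, short-lived proteins that keep the plasma membrane proton pump active and so promote cell expansion. By RefSeq product name 19 of 78 SAUR genes were listed (24.4%). Of the 20 genes matched by description, which include PAR2, 18 were lower, with a median of -1.42 in the authors' deposited table. Those lower in the pwo1 table alone numbered 7, among them SAUR20 at -1.57, SAUR27 at -1.44, SAUR63 at -1.43 and SAUR28 at -1.31 in the authors' deposited table. AT4G31320, at 1.33 in the authors' deposited table, was 1 of 2 higher. Of 24 early auxin genes 11 were listed, against 4.38% of all protein-coding genes. All 11 were lower, against 57.5% of all listed genes. Among the 11 were SAUR19, SAUR20, SAUR22, SAUR23, SAUR24 and SAUR63, so this count is not independent of the SAUR counts. GH3.5 and GH3.6, which conjugate auxin to amino acids, had -0.54 and -0.44, and the auxin exporter gene PIN3 had -0.45, in the authors' deposited table. IAA2, a repressor of auxin response, was at -0.43 in that deposited table.

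Families of the cell wall and surface differed in direction. Of the listed expansins, pectin enzymes and xyloglucan enzymes, which loosen or remodel the wall, 5 of 7, 8 of 12 and 2 of 3 were lower. Among all listed genes 57.5% were lower. In the pwo1 table alone, expansins and xyloglucan enzymes had 1 higher and 1 lower gene each, and pectin enzymes had 3 higher and 0 lower. Lipid transfer proteins, arabinogalactan proteins and peroxidases were mostly higher. Lipid transfer proteins carry lipids through the cell wall. Of 17 listed, 12 were higher, against 42.5% of all listed genes, and 10 of those were in the pwo1 table alone. LTP4 (AT5G59310) and its neighbour LTP3 (AT5G59320) had 3.38 and 1.76 in the authors' deposited table. The neighbouring pairs AT4G12510 and AT4G12520, at 1.53 and 1.21, and AT5G46890 and AT5G46900, at 1.16 and 1.46, were also both higher in the authors' deposited table. Such neighbours resemble each other, so how reads were divided between them is uncertain. By RefSeq product name 14 of 139 lipid transfer genes were listed, more than the 4.38% of all protein-coding genes.

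All 4 listed arabinogalactan proteins, glycoproteins of the cell wall, were higher and in the pwo1 table alone. AGP13 had 1.32, AGP30 1.17, AGP22 1.12 and the fasciclin-like FLA13 0.83 in the authors' deposited table. All 6 listed of 101 peroxidase genes (5.94%, against 4.38% of all protein-coding genes) were higher, against 42.5% of all listed genes. The pwo1 table alone held 4 of them, among them SAPX, an ascorbate peroxidase of the organelles, and there AT3G01190 had the largest value, 1.34 in the authors' deposited table. Aquaporins are water channels. TIP2;3, PIP2;4 and GAMMA-TIP, in the pwo1 table alone, had 1.26, 1.03 and 0.65 in the authors' deposited table, whereas the 3 in both tables, DELTA-TIP, PIP2E and PIP1;5, had -0.57, -0.50 and -0.45. Of 7 GDSL lipases 6 were lower, against 57.5% of all listed genes. The pwo1 table alone held 5 of the 6, with AT1G31550 at -1.13 in the authors' deposited table.

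Markers of organs were counted beside these groups. Of 6 leaf mesophyll markers 4 were lower, namely CAB3, LHCB1.1, GLK1 and GLK2, and of 6 root markers 1 was higher, the phosphate transporter gene PHT1;1 at 0.83 in the authors' deposited table. None of 5 root hair, 3 phloem companion cell, 5 seed or 3 pollen markers was listed. Of all protein-coding genes 4.38% were listed, a share at which lists this short may hold none. Of 5 guard cell markers KAT1, at -0.78, and of 4 flower markers SEP3, at 1.46, were listed in the authors' deposited table. Levels of markers that are not listed were not analysed here, and the part of organ proportions in these results was not tested.

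Nutrient genes had mixed directions. Of 17 phosphate starvation genes found in the reference 6 were listed, against 4.38% of all protein-coding genes, all in the pwo1 table alone, and 5 were lower. SPX3 and SPX1, sensors that hold back the starvation response, had -1.30 and -0.68, and IPS1, a non-coding RNA that traps a microRNA against PHO2, had -1.25 in the authors' deposited table. PHO2 itself, which removes phosphate transporters, had -0.73 and the pyrophosphatase gene PS2 -1.12 in the authors' deposited table. The uptake transporter PHT1;1 was the 1 higher member. Of 16 sulfur genes 4 were listed, against the same 4.38%, and all 4 were lower, against 57.5% of all listed genes. LSU1, SDI1 and BGLU28, which are known to be induced by lack of sulfur, had -2.31, -1.91 and -1.27 in the authors' deposited table and were in the pwo1 table alone. Of 18 nitrogen genes 6 were listed, again against 4.38%, and 5 of them were higher, against 42.5% of all listed genes. Only 2 of the 6 were in the pwo1 table alone, with opposite signs. The nitrite reductase gene NIR1 had 0.44 and ASN1, the 1 lower gene, had -1.41 in the authors' deposited table. UPM1, which overlaps another annotated gene, had 0.71 in pwo1 and the opposite sign, -0.50, in crwn1 crwn2. The nitrate reductase gene NIA1, in both tables, had 0.99 in the authors' deposited table.

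Carbon reserve genes in the pwo1 table alone were QQS, a gene known only from Arabidopsis that affects starch content, at -2.85, and GBSS1, the granule-bound starch synthase, at -0.66 in the authors' deposited table. ASN1 (also DIN6) and DIN10, both known to respond to darkness and lack of sugar, had opposite signs, -1.41 and 0.98, in the authors' deposited table. Of 19 genes of iron deficiency and iron storage that could be matched by symbol, 9 were listed, against 4.38% of all protein-coding genes. All 9 were higher, but they include the ferritin genes FER1 and FER3, whose proteins store iron, so they are not all deficiency genes. FER1, which overlaps another annotated gene, had 1.06 in pwo1 and the opposite sign, -1.13, in crwn1 crwn2. The pwo1 table alone held 2 of the 9, FER3 at 0.96 and the beta-glucosidase gene BGLU42 at 0.51 in the authors' deposited table. NAS2, which makes the metal chelator nicotianamine, had 2.12 in the authors' deposited table and was also in the pwo1 table alone, as was the transporter gene IRT2 at 1.87 in the authors' deposited table. Members that no symbol matched are not in these counts, and neither is AT3G12900, which is given below. Of 17 clock genes 9 were listed, against 4.38% of all protein-coding genes, with 2 higher and 7 lower. Of the 9, 7 were in the pwo1 table alone, against 59% of all listed genes. LNK1, LNK2 and RVE8, a group that activates evening genes, had -0.92, -0.95 and -0.55 in the authors' deposited table. The higher genes were TOC1 and ELF4, which are expressed in the evening, both at 0.50 in the authors' deposited table and in the pwo1 table alone. ASN1, DIN10, LNK1 and LNK2 overlap other annotated genes. The hour of harvest was not given in the sources used here.

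Genes of the Polycomb pathway itself were not among those listed. Of 23 Polycomb and Trithorax group genes found in the reference, none was listed. Of all protein-coding genes 4.38% were listed, a share at which a list this short may hold none. The p-values of such unlisted genes were not analysed here. Of 28 genes found in the reference that are known to carry trimethylated lysine 27 of histone H3 in seedlings, 3 were listed, against 4.38% of all protein-coding genes, all in the pwo1 table alone. The seed dormancy gene DOG1 had -1.14 with an edgeR p of 6.86e-05 in the authors' deposited table. FLC and the floral identity gene SEP3 had -2.16 and 1.46 there, in the authors' deposited table, and FLC overlaps another annotated gene. Of the histone and chromatin class 8 genes were in the pwo1 table alone, 5 higher and 3 lower. Besides HDT4, HDA3 and FKBP53 the higher ones were MSI3, a histone-binding WD40 protein, at 0.59 and PRMT10, an arginine methyltransferase, at 0.48 in the authors' deposited table. The lower ones were VPS46.1 at -0.96, the clock gene RVE8 and AT3G48710 at -0.52 in the authors' deposited table. VPS46.1 is a protein of vesicle sorting that is in the class because of the words of its description.

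Among the largest single changes in the pwo1 table alone were genes tied to abscisic acid or drying, beside others of varied function. On the higher side they were AT3G12900, an oxygenase of coumarin synthesis, at 7.64, AT4G29770, described as a target of trans-acting small RNAs, at 3.70, LTP4, and TSPO, a membrane protein induced by abscisic acid, at 3.05 in the authors' deposited table. The plastid-genome gene ATCG01130 had 2.98, LEA4-5, a protein of drying seeds, 2.55, the F-box gene AT5G60610 2.32, and LTI65, induced by abscisic acid, 2.24 in the authors' deposited table. The phloem lectin gene PP2-A5 (edgeR p of 2.24e-07 in the authors' deposited table) and NAS2 complete the 10 largest. The edgeR p was larger for LTP4, TSPO, LEA4-5 and LTI65, at 0.00076, 0.00046, 0.00072 and 0.00088 in the authors' deposited table. Of 17 listed genes that matched abscisic acid words 11 were higher, against 42.5% of all listed genes. Of the 11, 5 were in the pwo1 table alone. All 4 late embryogenesis abundant genes were higher, 1 of them in the pwo1 table alone. On the lower side AT5G56370, an F-box gene, had -8.63 by edgeR in the authors' deposited table, with a Cuffdiff value that could not be read. AT1G50970, a VPS53 family trafficking gene, had -3.14, the defensin-like AT2G16367 -3.13, the transposable element gene AT3G29120 -3.13 and AT5G05060, of the cystatin superfamily, -2.98 in the authors' deposited table. BPM6, an adaptor of cullin ubiquitin ligases, had -2.89, the phosphodiesterase GDPD6 -2.84, the leucine-rich repeat gene AT2G15042 -2.67 and its neighbour RLP18, annotated as a pseudogene, -2.60 in the authors' deposited table.

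Of 47 protein kinase genes 32 were lower, against 57.5% of all listed genes, and of 18 receptor kinases and receptor-like proteins 13 were lower, 9 of them in the pwo1 table alone. Of 11 F-box genes 9 were lower, 7 of those in the pwo1 table alone, although only 8 of 653 F-box genes by RefSeq product name were listed (1.23%). Of 12 ERF and AP2 transcription factor genes 9 were higher, against 42.5% of all listed genes, and 6 of those were in the pwo1 table alone. ERF13 had 1.46, AT4G13620 1.42, AT1G77640 1.37, AT1G64380 1.29 and DREB26 1.22 in the authors' deposited table. The lower member in the pwo1 table alone was RAP2.7, a repressor of flowering, at -0.79 in the authors' deposited table.

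Listed genes were spread over all chromosomes. Chromosome 3, which carries PWO1, had 4.69% of its protein-coding genes listed, and the other 4 nuclear chromosomes had between 4.12% and 4.52%. Of the genes listed on chromosome 3, 64.8% were in the pwo1 table alone, against 51.1% to 62.7% on the others. Among the 20 annotated genes on each side of PWO1 1 was listed, AT3G03060, an ATPase, at 0.98 in the authors' deposited table. Neighbouring listed genes formed 96 runs with 210 genes, of which 21 runs were higher throughout and 50 lower throughout. The longest held 5 glutaredoxin genes, AT4G15660 to AT4G15700, the largest value being 1.85 in the authors' deposited table, with AT4G15660 alone absent from the crwn1 crwn2 table. In 35 runs every gene was in the pwo1 table alone. The longest of these held AT5G38040, AT5G38050 and AT5G38060, with log2 fold changes between -2.24 and -0.96 in the authors' deposited table.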

How the data were processed

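The authors deposited, per the file headers, log2 fold changes with p-values for each listed gene, from edgeR and from Cuffdiff. Among the tools in the submitters' processing notes are Trimmomatic 0.35, TopHat2 2.0.12, HTSeq 0.6.1, edgeR 3.3 and Cuffdiff 2.2.1, with build TAIR10. The normalization, count filter and threshold for listing were not given in the sources used here. By value, the largest listed p-value was 0.00386 by edgeR and 0.00455 by Cuffdiff in the authors' deposited table, and no adjusted p is given. No fit was possible, since values per replicate were not used here, and the depth is unknown. An upper bound of the adjusted p was computed by Benjamini-Hochberg over all 38094 genes of the reference. Symbols, families, overlaps and promoters came from RefSeq's TAIR10.1, which held 1236 of the 1239 identifiers. Its promoter coordinates are its own, and none was converted. Tables were read with Python 3.11.15 and pandas 2.3.3. The bound of the adjusted p and the trimming of descriptions were tested on made-up input, and the other steps were not.

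Members, classes and lists were chosen with earlier results of these data known. Named genes were the PWO family, the 10 largest changes each way and, by class or list, those of largest change or smallest p in the pwo1 table alone. Further genes were added to complete a group, with their values known, and the promoters shown were chosen for their motifs where no other annotated gene lies in the window.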

Additional observations from a re-analysis of the deposited data

How the results depend on the processing

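No paired analysis was possible because the tables hold no values per replicate, and for the same reason no replicate could be left out. Taking directions from Cuffdiff moved none of 18 counts beyond 1.5 times, and the sign was the same for 250 of 250 named genes. Assigning each gene to its first matching class moved none of 11 counts beyond 1.5 times. With a p under 0.001 in both tools 812 genes remained, 312 of them higher. Of these, 433 were in the pwo1 table alone, 196 higher and 237 lower. With an adjusted p bound under 0.05, 237 genes remained that were higher in the pwo1 table alone, of 358. At 2-fold by edgeR 430 genes were left, 183 higher and 247 lower, with 219 in the pwo1 table alone, 105 higher and 114 lower. At 2-fold by Cuffdiff the counts were 431, 189 and 242, with 218 in the pwo1 table alone, 106 higher and 112 lower. The 2-fold threshold by edgeR left 1 higher nucleolar gene and 1 higher gene of the ribosomal protein class. The latter was AT5G25230, the elongation factor G type GTPase and not a ribosomal protein. Higher genes left in other classes were 0 pentatricopeptide repeat, 2 chaperone, 3 mitochondrial and 2 peroxidase genes. The same threshold left 14 lower photosystem genes, 3 lower bHLH genes and 5 lower zinc finger genes. Most members of the nucleolar and organelle groups changed by less than 2-fold. Class counts depend on the words of the descriptions, and the sign of the table on its header.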

Other observations

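Non-coding RNA genes were a small set. All 9 listed genes that matched the words for non-coding RNA, transposable elements and pseudogenes not counted, were lower in pwo1 and absent from the crwn1 crwn2 table, while 57.5% of all listed genes were lower. AT4G13495 had the lowest value, -1.53 in the authors' deposited table, and MIR167d, the precursor of a microRNA against auxin response factors, had -1.28. AT2G41312 and AT3G13277 had -1.18 and -1.09 in the authors' deposited table. Of the 9, 6 overlap another annotated gene, and since the kit does not mark strand their reads cannot be told from those of the partner.

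Transposable element genes had no shared direction. Of 12 listed, 5 were higher and 7 lower, and 7 of the 12 were in the pwo1 table alone. In the authors' deposited table SADHU5-1, a non-coding retrotransposon, had 1.27 and AT3G44205, a Mutator-like gene, -1.21. AT3G62455 had 1.95 in the authors' deposited table, and the gene beside it, AT3G62460, annotated as an endonuclease or glycosyl hydrolase, had 2.02, both in the pwo1 table alone.

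Close relatives in the same cluster could differ in table membership. SCPL13, SNG1, scpl10 and SCPL9, neighbouring serine carboxypeptidase-like genes on chromosome 2, were all lower, between -1.63 and -0.54 in the authors' deposited table, and 3 of the 4 were in the pwo1 table alone. Cytokinin synthesis genes were few, with IPT5 at 1.09 in the pwo1 table alone and IPT3 at 0.94 in both tables, in the authors' deposited table.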
